A study of Mus musculus with 4 samples.

Results

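Myelin and mature oligodendrocyte genes were followed through the developing mouse pontine nucleus, a group of neurons in the ventral pons that relays cortical signals to the cerebellum. The list held 33 genes, chosen by name. A gene was measured when the platform's gene table gave it a probe set with no other gene symbol, and 31 of the 33 were, out of 19938 genes named in this way. The table used here did not name Enpp2, and the probe set of Evi2a also carried the symbols Evi2 and Evi2b. Each of the 31 genes had 1 such probe set, so no choice between probe sets was needed.

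Tissue came from ICR mice on embryonic day 17.5 (E17.5), postnatal day 1 (P1), postnatal day 5 (P5) and postnatal day 14 (P14). The respective pools held 27, 16, 13 and 12 mice, and every pool went onto a single Affymetrix array. No treatment or genotype difference is given in the labels, and nothing in them says how the borders of the nucleus were set. With 1 array per age there was no replicate, no test and no p-value, and every difference below is between single arrays.

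Oligodendrocytes wrap axons in myelin, a compacted stack of membrane rich in galactolipids and cholesterol, which speeds the conduction of nerve impulses. Transcription factors such as OLIG2, SOX10 and MYRF act in this lineage. Precursor cells first leave the cell cycle, then make membrane lipids and the first sheath proteins, and later add the proteins of compacted, mature sheaths. In the rodent hindbrain this takes place mainly after birth.

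The P5-labelled array stood further from the 2 early arrays than the P14-labelled array did. Across 10901 genes past the level filter described below, Pearson's r with the P1 array was 0.966 for the P14-labelled array and 0.809 for the P5-labelled array. Of 2120 genes with a range of at least 2-fold over the 4 arrays, the value on the P14-labelled array lay between those of P1 and the P5-labelled array in 1835 (86.6%). All 31 myelin genes did the same on the deposited scale and had their highest value on the P5-labelled array (29 of 31 with arrays centred on the median level of a housekeeping list). The labels are kept as deposited, and each direction that involves these arrays rests on them. The P1 against E17.5 differences use neither array. Counts of members highest or lowest on an array, or above 0 in a comparison, are descriptions. The share of all genes is not given beside them. Of 4 markers of the labelled tissue, 3 were over 10 on the log2 scale on every array: Slc17a6, the glutamate transporter VGLUT2, lay between 11.17 and 11.57, Barhl1, a homeobox factor of rhombic lip neurons, between 10.83 and 12.23, and Pax6, another such factor, between 10.01 and 11.52. Slc17a7, the transporter VGLUT1, was lowest at E17.5 (8.16) and highest on the P5-labelled array (12.90).

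Promoter windows are shown first, for members with a high and a low share on the P14-labelled array, a measure defined below. They are the 250 bases before a transcript start in RefSeq for mouse assembly GRCm38.p6, 5′ to 3′ on the strand of the gene. Gjc3 (chr5:137963099-137963348, minus strand) and Cnp (chr11:100574689-100574938, plus strand) had the highest shares among the members with a window in that table. Gjb1 (chrX:101376126-101376375, plus strand, the first listed of 4 starts) and Gsn (chr2:35256109-35256358, plus strand, the first listed of 3) had the lowest shares among them. Capitals mark matches, on either strand, to ACAAAG (the core bound by SOX factors), CTGGCAC or CTGGTAC (letters bound by MYRF), TATAAA (the TATA box) and GGGCGG (the GC box).
Gjc3: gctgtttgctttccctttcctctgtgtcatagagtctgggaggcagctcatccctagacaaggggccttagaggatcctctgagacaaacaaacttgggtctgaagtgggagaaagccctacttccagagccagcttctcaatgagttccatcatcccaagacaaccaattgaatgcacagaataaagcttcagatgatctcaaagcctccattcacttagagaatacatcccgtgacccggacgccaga
Cnp: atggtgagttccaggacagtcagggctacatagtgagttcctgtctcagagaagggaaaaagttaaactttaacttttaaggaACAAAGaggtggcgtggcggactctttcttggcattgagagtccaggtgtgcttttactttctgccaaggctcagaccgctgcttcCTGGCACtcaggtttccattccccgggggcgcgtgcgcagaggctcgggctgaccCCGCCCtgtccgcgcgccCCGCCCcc
Gjb1: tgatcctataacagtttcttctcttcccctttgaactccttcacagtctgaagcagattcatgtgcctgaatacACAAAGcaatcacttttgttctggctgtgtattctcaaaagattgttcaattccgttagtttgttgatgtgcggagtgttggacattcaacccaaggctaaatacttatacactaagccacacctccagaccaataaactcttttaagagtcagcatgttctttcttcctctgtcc
Gsn: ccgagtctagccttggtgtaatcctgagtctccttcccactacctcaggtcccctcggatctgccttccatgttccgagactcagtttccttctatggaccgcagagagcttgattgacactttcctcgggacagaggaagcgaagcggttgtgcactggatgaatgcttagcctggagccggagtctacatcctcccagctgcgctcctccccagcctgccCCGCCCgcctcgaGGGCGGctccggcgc
The Cnp window held ACAAAG at position −167 from the start, CTGGCAC at 81 bases before it, and 2 GC boxes. None of these letters occurs in the Gjc3 window. The Gjb1 window held ACAAAG at position −176, and the Gsn window held 2 GC boxes, the first at position −28.

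RefSeq windows were found for 24 of the 31 measured members, 35 windows in all. CTGGCAC occurred in 5 of the 35 windows (14.3%), against 4.19% of 32851 windows of all genes. By gene it was found in Cnp, Hapln2, Mag and Nipal4, 4 of 24 genes (16.7%, against 4.83% of 27025 genes). CTGGTAC occurred in 1 window, that of Mog (2.9%, against 1.83%). The sites are shown because MYRF is a factor that turns on myelin genes, with 10 bases on each side. They lie at chr7:30914915-30914941 (Mag, minus strand), chr3:88027639-88027665 (Hapln2, minus strand), chr11:46166543-46166569 and chr11:46166518-46166544 (Nipal4, minus strand) and chr17:37023465-37023491 (Mog, minus strand). The Cnp site stands in the window above. Capitals mark the MYRF letters, which in Hapln2 and Mog read on the opposite strand.
Mag: caggcggcccCTGGCACccagggggca
Hapln2: ccggtggtttGTGCCAGcctgtcctgc
Nipal4: tctcttgcccCTGGCACgggcggatga
Nipal4: gactcggtggCTGGCACccagctgcgg
Mog: gaaatgcccaGTACCAGgcagccactg
ACAAAG occurred in 9 of the 35 windows (25.7%, against 16.5% of all windows), TATAAA in 2 (5.7%, against 12.4%) and GGGCGG in 12 (34.3%, against 32.7%). Of 50 matches, 2 neighbouring pairs overlapped. Genes with the MYRF letters stood on both sides of the order of shares on the P14-labelled array, Cnp with a high share and Nipal4 and Hapln2 with low ones. A match is a description of the letters in these windows and not of binding.

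Levels are normalised log2 signals per probe set, and they are compared between arrays for the same gene, never between genes. A gene passed the level filter when its highest array reached 8.41, the median of all probe sets with 1 gene symbol. Of the 31 members, 30 passed and Tmem125 did not, with a highest value of 8.31. For 10 of the 30 the P5-labelled array was the only one at or over that level, so these had to differ between it and the rest, and counts over the 30 are descriptions. Below 8.41 stood 25 members at E17.5, 19 at P1, 11 on the P14-labelled array and 1 on the P5-labelled array. Where the lower value of a pair was under 8.41, the size of the difference is inexact and no fold is given. The standard deviation of a difference due to the probe set, from 645 genes with several probe sets, lay between 0.10 and 0.18 in the 6 comparisons. It does not hold the spread between pools of mice, which could not be measured. In pooled tissue, fewer cells of a type and less RNA per cell cannot be told apart.

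The 7 proteins of compact myelin and of the sheath were all at least 2-fold higher on the P5-labelled array than at P1, and 6 of the 7 were at least 2-fold above E17.5 on the P14-labelled array. Mbp, the protein that draws the cytoplasmic faces of the membrane together, had levels of 9.35 at E17.5, 10.05 at P1, 12.43 on the P5-labelled array and 11.01 on the P14-labelled array. Cnp, a phosphodiesterase that keeps cytoplasmic channels open in the sheath, stood at 9.51, 10.55, 13.52 and 11.73 in the same order. Both were over 8.41 on all 4 arrays. Mbp was 1.62-fold higher at P1 than at E17.5 and Cnp 2.06-fold. On the P5-labelled array they were 8.46-fold and 16.11-fold higher than at E17.5.

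Mobp, a small basic protein of compact myelin, had levels of 7.05 at E17.5, 7.05 at P1, 12.91 on the P5-labelled array and 8.50 on the P14-labelled array. Its E17.5 and P1 values were equal, although Mbp, with a similar place in the sheath, was higher at P1. Both of these Mobp values lay under 8.41, so a small difference between them could be missed. Cldn11, which forms the tight junctions of central myelin, stood at 8.30, 8.67, 13.50 and 10.18 in the same order. Tspan2, a tetraspanin of oligodendrocytes, stood at 7.71, 8.25, 12.43 and 9.95. Among the 31 members Tspan2 had the largest difference between the P14-labelled array and P1, at 1.70, followed by Cldn11 at 1.51.

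Mal and Pllp are related small membrane proteins that travel with myelin lipids. They differed in how far they stood above E17.5 at P1 and on the P14-labelled array. Mal had levels of 7.50 at E17.5, 7.62 at P1, 11.83 on the P5-labelled array and 8.03 on the P14-labelled array. Pllp stood at 7.25, 8.08, 10.96 and 8.94. From E17.5 to P1 the difference was 0.12 for Mal and 0.83 for Pllp, with a probe set standard deviation of 0.12. On the P14-labelled array, Mal was 0.53 above E17.5 and Pllp 1.69. The E17.5 values of both genes lay under 8.41.

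The 3 surface proteins of the sheath had a median difference of −4.25 between the P14- and P5-labelled arrays, and 2 of them were 2-fold above E17.5 on the P14-labelled array. Mog, on the outermost face of the sheath, had levels of 7.18 at E17.5, 7.39 at P1, 12.91 on the P5-labelled array and 8.27 on the P14-labelled array. Mag, which faces the axon, stood at 7.35, 8.15, 13.38 and 9.63. Opalin, a transmembrane glycoprotein of oligodendrocytes, stood at 6.03, 6.04, 10.36 and 6.11. Mag had the largest difference of all 10901 genes between the P5-labelled array and E17.5, at 6.03. Opalin stayed within 0.08 of its E17.5 value on the P14-labelled array, while Mag was 2.28 above it. The E17.5 value of Opalin lay under the lower quartile of that array (6.51).

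The 3 genes of cell shape had a median difference from E17.5 of 0.02 at P1. On the P14-labelled array the difference was 0.06 for Gsn, 0.21 for Ppp1r14a and 0.71 for Ermn, beside a probe set standard deviation of 0.13. Ermn, an actin-binding protein of late oligodendrocytes, had levels of 5.25 at E17.5, 5.40 at P1, 11.12 on the P5-labelled array and 5.96 on the P14-labelled array. Gsn, the actin-severing protein gelsolin, stood at 8.26, 8.22, 11.80 and 8.32. Ppp1r14a, an inhibitor of myosin phosphatase, stood at 7.68, 7.70, 10.73 and 7.89. The difference between P1 and E17.5 lay between −0.04 and 0.15 for these 3 genes, beside a probe set standard deviation of 0.12. None of them was 2-fold above E17.5 on the P14-labelled array. All 3 were under 8.41 on every array but the P5-labelled one, so these small differences are inexact.

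The 4 enzymes of myelin lipids had a median difference from E17.5 of 0.66 at P1 and 1.56 on the P14-labelled array, beside 0.54 and 1.69 for the sheath proteins. Ugt8a, which adds galactose to ceramide, had levels of 8.01 at E17.5, 8.66 at P1, 12.81 on the P5-labelled array and 9.66 on the P14-labelled array. Fa2h, which hydroxylates the fatty acids of those lipids, stood at 7.36, 8.16, 12.35 and 9.31. Gal3st1, which sulfates galactosylceramide to sulfatide, stood at 7.96, 8.21, 10.33 and 8.60. From E17.5 to P1, Ugt8a differed by 0.65 and Fa2h by 0.80, against 0.25 for Gal3st1, which acts after Ugt8a in the same route. Aspa, which frees acetate from N-acetylaspartate for lipid synthesis, stood at 6.44, 7.12, 10.24 and 7.92. Of the 4 enzymes, Gal3st1 alone was not 2-fold above E17.5 on the P14-labelled array.

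The connexins Gjc3 and Gjb1 stood at opposite ends of the members' differences from E17.5 at P1 and on the P14-labelled array. Gjb1 is the connexin mutated in X-linked Charcot-Marie-Tooth neuropathy. Gjc3 had levels of 8.28 at E17.5, 9.60 at P1, 12.44 on the P5-labelled array and 10.60 on the P14-labelled array. Gjb1 stood at 6.87, 6.70, 9.12 and 6.87. Gjc3 had the largest P1 against E17.5 difference among the members (1.32), and Gjb1 the lowest (−0.17). On the P14-labelled array Gjb1 had its E17.5 value, and Gjc3 was 2.32 above its own, the largest difference of any member there. Gjb1 was under 8.41 on every array but the P5-labelled one, and Gjc3 was under it at E17.5. The sizes of these differences are therefore inexact.

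**Figure D1:**
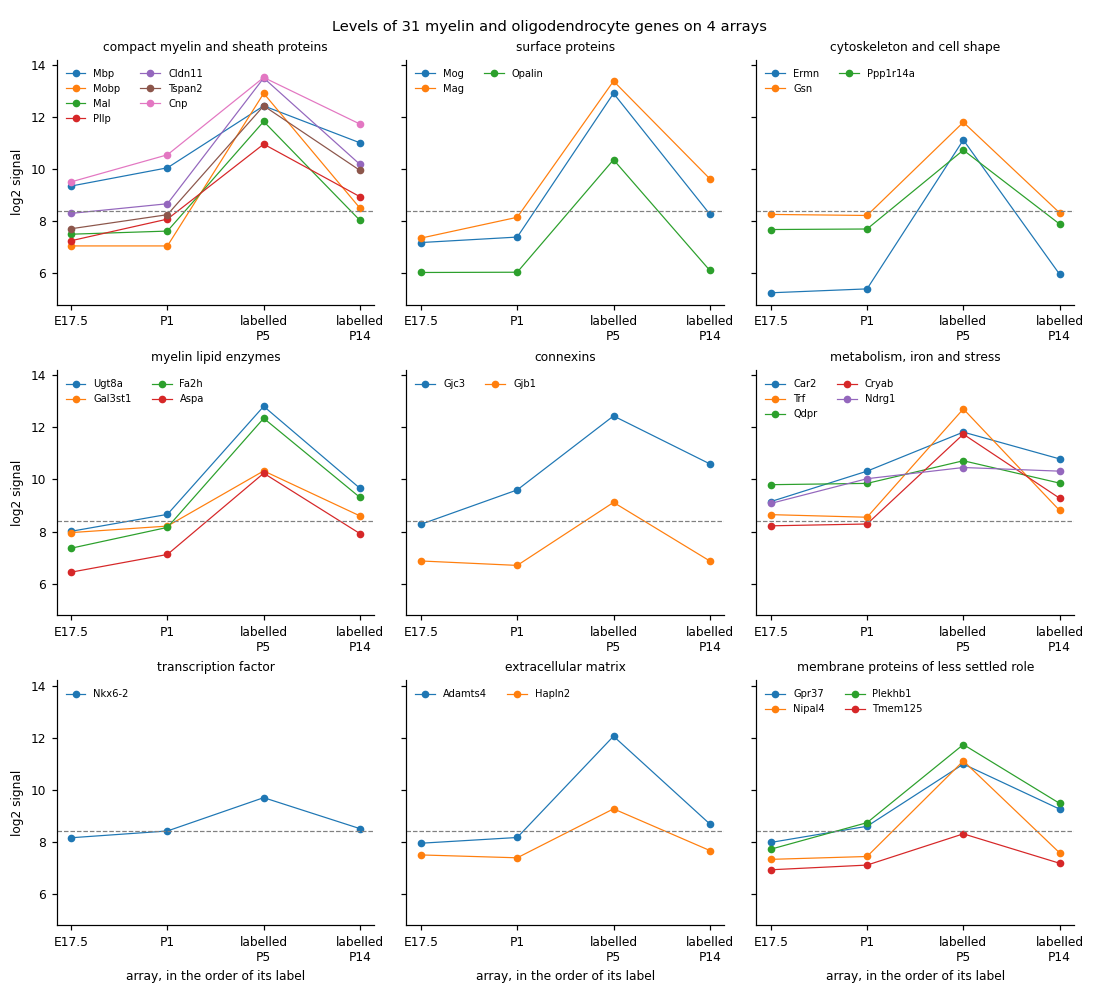
Log2 signal (vertical axis) of 31 myelin and oligodendrocyte genes on the 4 arrays (horizontal axis, in the order of the labels), 1 panel per role and 1 point per gene and array; lines join the points of a gene and the dashed line is the filter level of 8.41. On this deposited scale each gene is highest on the P5-labelled array. Gjc3 is above its E17.5 value at P1, while Gjb1, under the dashed line on every array but the P5-labelled one, is not.

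Genes of metabolism, iron and stress held some of the highest and some of the lowest P1 against E17.5 differences among the members. Car2, the carbonic anhydrase of oligodendrocytes, had levels of 9.15 at E17.5, 10.32 at P1, 11.82 on the P5-labelled array and 10.79 on the P14-labelled array. Ndrg1, a gene of cell differentiation and stress whose mutation causes a demyelinating neuropathy, stood at 9.08, 10.03, 10.46 and 10.32. Trf, the iron carrier transferrin, stood at 8.65, 8.55, 12.71 and 8.81. Car2 was 2.25-fold and Ndrg1 1.93-fold higher at P1 than at E17.5. Trf was 1.07-fold lower at P1 and 16.68-fold higher on the P5-labelled array, with all its levels over 8.41.

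Cryab, a small heat shock protein, had levels of 8.22 at E17.5, 8.29 at P1, 11.74 on the P5-labelled array and 9.28 on the P14-labelled array. Qdpr, which recycles tetrahydrobiopterin, stood at 9.80, 9.85, 10.72 and 9.86. Qdpr was the member that never came 2-fold above its E17.5 level, reaching 1.89-fold on the P5-labelled array. Ndrg1 was the only other member under 2-fold between the P5-labelled array and P1 (1.35-fold).

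The transcription factor and the 2 matrix genes were at least 2-fold above E17.5 on the P5-labelled array alone. Nkx6-2, a homeobox factor of oligodendrocytes, had levels of 8.16 at E17.5, 8.42 at P1, 9.70 on the P5-labelled array and 8.51 on the P14-labelled array. Adamts4, a protease that cuts matrix proteoglycans, stood at 7.95, 8.17, 12.06 and 8.69. Hapln2, a link protein of the matrix at nodes of Ranvier, stood at 7.50, 7.39, 9.27 and 7.67. By the share of the difference described below, Nkx6-2 stood at 16.9% at P1 and Hapln2 at −6.2%.

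Membrane-associated proteins of less settled role were divided. Plekhb1, a protein with a pleckstrin homology domain, had levels of 7.72 at E17.5, 8.74 at P1, 11.74 on the P5-labelled array and 9.48 on the P14-labelled array. Gpr37, an orphan receptor of differentiating oligodendrocytes, stood at 7.98, 8.60, 10.99 and 9.26. Nipal4, of a family of magnesium transporters, stood at 7.33, 7.44, 11.11 and 7.58. Plekhb1 was 1.02 and Gpr37 0.62 above E17.5 at P1, and Nipal4 0.11. Tmem125, below the filter level, stood at 6.93, 7.11, 8.31 and 7.18.

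Across the members, few were 2-fold apart at P1. Among the 30 over the filter level, 4 reached 2-fold or more above E17.5 at P1 (Gjc3, Car2, Cnp and Plekhb1) and none lower, against 0.826% of the 10901 genes higher and 0.275% lower. The median difference was 0.26, against −0.06 for all genes. The members just inside the threshold were Plekhb1 at 1.02 and Cnp at 1.04, and just outside it were Ndrg1 at 0.95 and Pllp at 0.83. Over all 31 measured members, 26 lay above 0, 4 below it and 1 at 0. The 4 below were Gjb1, Hapln2, Trf and Gsn, none by more than 0.17. With the level filter applied to the E17.5 and P1 arrays alone, 12 members passed and the median was 0.68.

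Between P1 and the P14-labelled array, 8 of 30 were at least 2-fold higher and none lower, against 1.37% and 0.101% of all genes. They were Tspan2 (1.70), Cldn11 (1.51), Mag (1.48), Mobp (1.45), Cnp (1.18), Fa2h (1.15), and Ugt8a and Gjc3 at 1.00 each, on the threshold itself. Just outside lay Cryab (0.99) and Mbp (0.96). The median was 0.61, against −0.01 for all genes. Mobp and Cryab had differed by 0.00 and 0.07 from E17.5 to P1. Car2 and Ndrg1 differed by 0.47 and 0.29. With arrays centred on the median level of 7 housekeeping genes, the count was 4 and the members above 0 numbered 20 in place of all 31.

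Against E17.5, 17 of 30 members were at least 2-fold higher on the P14-labelled array and none lower (background 4.55% and 1.19%), with a median of 1.16. Against P1, 28 of 30 were at least 2-fold higher on the P5-labelled array and none lower (background 8.96% and 3.94%), with a median of 3.28 against 0.05 for all genes. Of the 100 largest differences in that comparison, 21 belonged to members. Against E17.5, 29 of 30 were at least 2-fold higher on the P5-labelled array and none lower (background 11.3% and 5.50%), with a median of 3.90. Between the P14- and P5-labelled arrays, 28 of 30 were at least 2-fold lower on the P14-labelled array and none higher (background 4.50% and 2.16%), with a median of −2.47. These comparisons share arrays and are not independent. Ermn had the largest difference between these arrays, at levels of 11.12 and 5.96, and Ndrg1 the smallest (−0.14). With arrays centred on the housekeeping level, Qdpr and Ndrg1 were no longer highest on the P5-labelled array, and the other 29 members were.

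To set members with large and small differences side by side, each difference from E17.5 was divided by that gene's difference between E17.5 and the P5-labelled array. This share could be had for 30 members, with Qdpr left out because those arrays lay 0.92 apart. By its label the P14 array comes after the P5 array, so the share on it orders members by level and not by time. On the P1 array the share ranged from −7.6% (Gjb1) to 68.8% (Ndrg1). On the P14-labelled array it ranged from 0.0% (Gjb1) to 89.9% (Ndrg1). For the 29 members past the filter the medians were 10.5% and 30.1%. For 1234 genes past the filter that were at least 2-fold higher on the P5-labelled array than at E17.5, they were 16.9% and 47.1%. These genes were not matched to the members by size of difference or by E17.5 level. Of the 29 members, 10 passed the filter through the P5-labelled array alone, so the medians of the members are partly set by the filter. With the level filter 1 higher, the median of the members on the P14-labelled array was 34.4%. The difference between members and all genes was not tested.

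The members with the highest share on the P14-labelled array were Ndrg1, Car2 (61.4%), Gjc3 (55.8%), Cnp (55.4%) and Mbp (53.9%). The high share of Ndrg1 goes with a small total difference, 1.38 between E17.5 and the P5-labelled array. Its difference from E17.5 on the P14-labelled array was 1.24, against 2.32 for Gjc3. On the P1 array the 5 highest were Ndrg1, Car2 (43.8%), Gjc3 (31.7%), Cnp (25.9%) and Plekhb1 (25.4%). The members with the lowest share on the P14-labelled array were Gjb1, Gsn (1.7%), Opalin (1.8%), Trf (3.9%) and Nipal4 (6.6%). Of these Gjb1, Gsn, Opalin and Nipal4 were under 8.41 on every array but the P5-labelled one, so that their low shares and their order are inexact, while Trf was over that level on all 4 arrays. On the P1 array the 5 lowest were Gjb1, Hapln2 (−6.2%), Trf (−2.5%), Gsn (−1.1%) and Mobp (0.0%). Of these, Trf alone was over 8.41 at E17.5 and P1. The P1 against E17.5 differences of Hapln2 (−0.11), Trf (−0.10), Gsn (−0.04) and Mobp (0.00) lay within the probe set standard deviation of 0.12, so this order is inexact. The log2 differences of neighbours such as Gjc3 and Cnp, or Gsn and Opalin, were apart by less than the probe set standard deviation of 0.13. Mobp had a share of 0.0% at P1 and 24.7% on the P14-labelled array, and Tspan2 11.4% and 47.5%.

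By role, the median share on the P14-labelled array was 45.8% for the genes of metabolism, iron and stress without Qdpr, and 45.6% for the 7 sheath proteins. It was 36.6% for the 4 lipid enzymes and 30.3% for the 4 membrane proteins, which include Tmem125, below the filter level. It was 27.9% for the 2 connexins, 22.7% for Nkx6-2, 19.0% for the 3 surface proteins, 13.8% for the 2 matrix genes and 6.9% for the 3 genes of cell shape. All 3 genes of cell shape were over 8.41 on the P5-labelled array alone, as were Mog, Opalin, Hapln2, Gjb1, Mal, Aspa and Nipal4. Their shares are inexact and partly set by the filter, and the order of the roles is a description. At P1 the medians in the same order of roles were 22.9%, 11.4%, 14.8%, 16.8%, 12.0%, 16.9%, 3.7%, −0.4% and 0.7%, so the order of the roles was not the same on both arrays. Roles with several members held a spread, as from 12.2% (Mal) to 55.4% (Cnp) among the sheath proteins. Among the genes of metabolism, iron and stress it ran from 3.9% (Trf) to 89.9% (Ndrg1). Counted by the arrays on which they were at least 2-fold above E17.5, 4 members were so by P1, 13 more on the P14-labelled array, 13 on the P5-labelled array alone and Qdpr on none. Under 8.41 at E17.5 were 2 of the 4, 11 of the first 13 and 12 of the second 13, where the size of a difference is inexact. On the linear signal scale the median shares were 1.2% at P1 and 8.0% on the P14-labelled array.

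**Figure D2:**
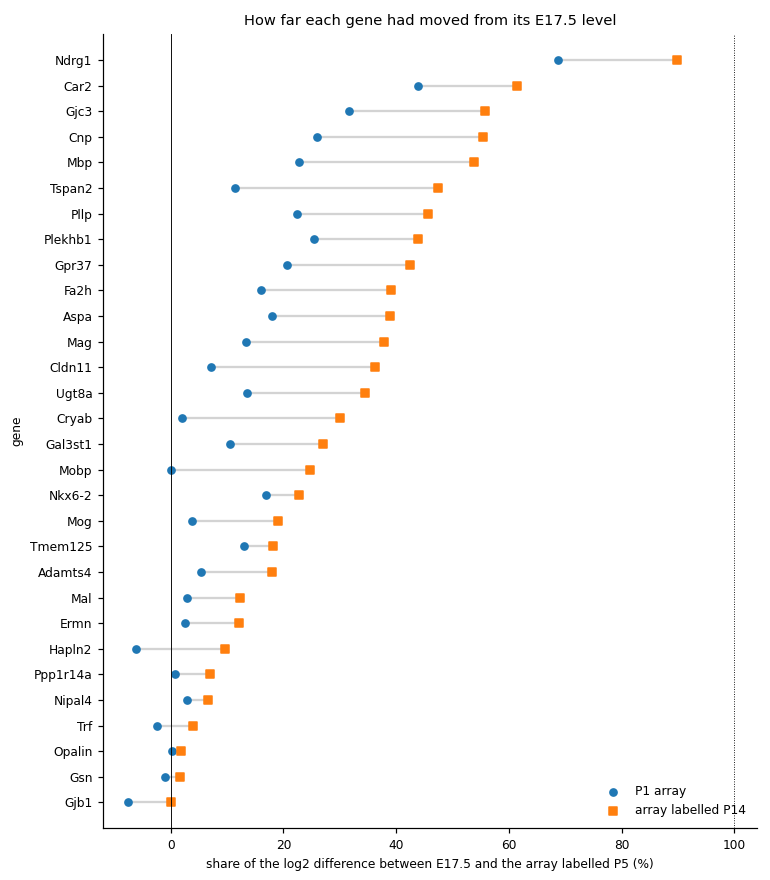
Share of the log2 difference between E17.5 and the P5-labelled array (horizontal axis, percent) at P1 (blue circles) and on the P14-labelled array (orange squares) for 30 genes (vertical axis), with grey lines joining the points of a gene. Ndrg1 and Car2 stand highest, at 89.9% and 61.4% on the P14-labelled array, and Gjb1, Gsn and Opalin are at or under 1.8% there.

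Other genes of the lineage gave the setting of these values. Transcription factors of oligodendrocytes had a median of 0.46 above E17.5 at P1, 1.05 on the P14-labelled array and 1.83 on the P5-labelled array. None of the 12 was at least 2-fold higher at P1, 7 were on the P14-labelled array and 9 on the P5-labelled array, with none lower. Of all 10901 genes, 0.826%, 4.55% and 11.3% were at least 2-fold higher there. Sox10 had levels of 8.65 at E17.5, 9.45 at P1, 10.91 on the P5-labelled array and 9.98 on the P14-labelled array. Myrf, which turns on myelin genes, stood at 7.97, 8.44, 11.58 and 9.21. Both were lowest at E17.5, as 27 of the 31 members were, and highest on the P5-labelled array. Myt1, a zinc finger factor of precursors, went the other way, from 9.63 at E17.5 to 8.72 on the P5-labelled array.

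Of a further list of myelin and oligodendrocyte genes, 28 were analysed here and 27 passed the filter. Its median above E17.5 was 0.11 at P1, 0.31 on the P14-labelled array and 2.16 on the P5-labelled array. At least 2-fold higher were 0, 2 and 23 genes (background 0.826%, 4.55% and 11.3%), and none was lower. Plxnb3, a semaphorin receptor of oligodendrocytes, had levels of 7.61 at E17.5, 8.16 at P1, 11.23 on the P5-labelled array and 9.32 on the P14-labelled array. Anln, a septin-binding scaffold protein, stood at 7.57, 7.44, 10.20 and 7.37. Plxnb3 and Apod were the 2 genes at least 2-fold above E17.5 on the P14-labelled array.

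Precursor genes were measured beside the members. Of 12 precursor and brake genes, 3 were at least 2-fold higher and 2 lower on the P5-labelled array than at P1 (background 8.96% and 3.94%), with a median of −0.24. Gpr17, a receptor of cells about to differentiate, had levels of 8.94 at E17.5, 10.07 at P1, 11.88 on the P5-labelled array and 11.22 on the P14-labelled array. Id2, an inhibitor of differentiation, stood at 13.74, 13.66, 12.44 and 13.39. Members and precursor genes differ in the sign of the median between the P5-labelled array and P1. Against E17.5, the precursor median on the P5-labelled array was 0.32, above 0 as for the members. The difference between the lists was not tested.

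Of 17 genes of cholesterol and long-chain lipid synthesis, 15 were measured and past the filter. On the P5-labelled array 4 were at least 2-fold higher than at P1 and none lower (background 8.96% and 3.94%), with a median of 0.34. Elovl7, an elongase of long-chain fatty acids, had levels of 7.46 at E17.5, 7.90 at P1, 11.55 on the P5-labelled array and 9.04 on the P14-labelled array. Elovl1, which makes very long chains, stood at 9.51, 9.84, 12.21 and 10.06. Fdft1, the first enzyme committed to sterols, had the lowest difference of the list in the same comparison (−0.42).

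Markers of other cells moved on the same arrays. The 12 astrocyte genes had medians above E17.5 of 0.64 at P1, 1.25 on the P14-labelled array and 1.80 on the P5-labelled array, with a summed log2 level of 112.03, 121.65, 130.05 and 137.18 from E17.5 through these arrays. The 9 microglial genes past the filter, of 10 measured, had medians of 0.49, 1.08 and 1.33 and summed levels of 72.42, 77.68, 81.98 and 85.09. For the 11 neuronal genes the medians were −0.02, 0.46 and 0.92, with summed levels of 124.58, 125.43, 133.35 and 138.50. The 7 genes of meninges and mural cells past the filter had medians of −0.05, 0.90 and 0.83 and summed levels of 59.04, 58.34, 66.64 and 66.36. The 7 endothelial genes past the filter had medians of −0.10, 0.23 and 0.28 and summed levels of 63.83, 63.05, 65.12 and 66.01. None of these 7 was at least 2-fold from E17.5, where 0.826%, 4.55% and 11.3% of all genes were higher. The part of these cells in the myelin gene values was not tested.

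Other cell types are known to express single members. None of the 8 choroid plexus genes passed the filter. Ttr, their defining gene, lay between 5.93 and 6.59 on all arrays. Kcnj13, of the same list, had levels of 6.85 at E17.5, 6.85 at P1, 8.39 on the P5-labelled array and 6.95 on the P14-labelled array. Choroid plexus also makes Trf, and its part in the Trf values was not tested. Of 7 Schwann cell genes measured, only Drp2 passed the filter, at 10.66 at E17.5 and 9.82 on the P5-labelled array, and Pmp2 lay between 5.71 and 6.16. Cdh19, of the same list and below the filter, stood at 4.63, 4.53, 8.15 and 4.81. Of red blood cell genes, which bear on Car2, 3 were measured and Alas2 alone passed, between 8.41 and 8.89.

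**Figure D3:**
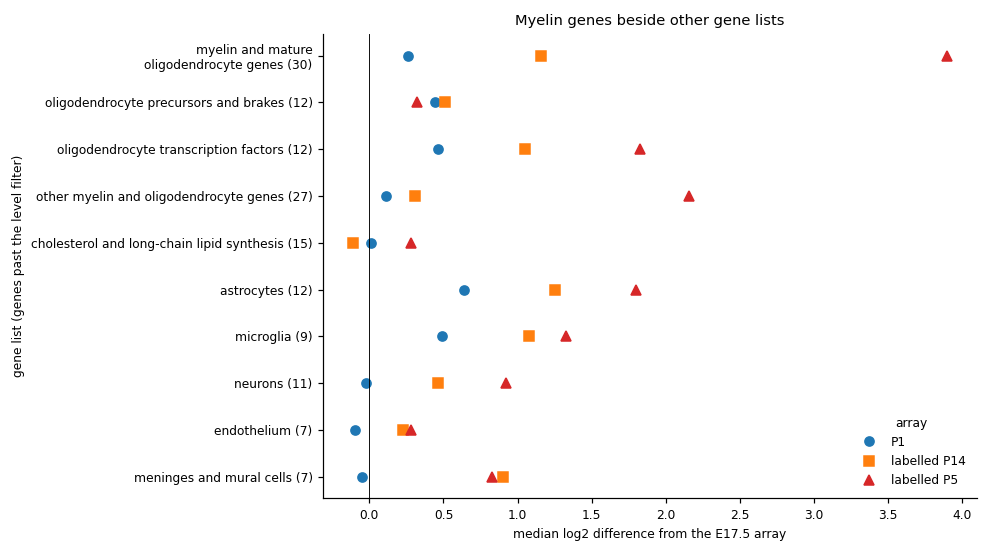
Median log2 difference from the E17.5 array (horizontal axis) for the myelin genes and 9 other gene lists (vertical axis, with the number of genes past the filter), on the P1 array (blue circles), the P14-labelled array (orange squares) and the P5-labelled array (red triangles). The myelin genes reach 3.90 on the P5-labelled array, further myelin and oligodendrocyte genes 2.16 and precursor genes 0.32.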

How the data were processed

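Gene expression was measured on 4 Affymetrix arrays, 1 per age. The authors deposited a normalised log2 value for each probe set, produced with Affymetrix Expression Console per the submitters' processing notes. Neither its version nor the summary and normalisation methods is given in the sources used here. That values are log2 follows from the range of the values. Array medians lay between 7.89 and 7.94 over 35556 probe sets, and nothing was rescaled. The number of arrays limits the precision.

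Of 23410 probe sets in the platform's gene table, 21789 carried 1 gene symbol; they named 19938 genes, and a gene with several probe sets was read from the one of highest mean. The level filter, the 2-fold threshold, the shares and the 6 comparisons were computed with Python 3.11.15, pandas 2.3.3 and numpy 2.4.6, and tested on simulated data. Every member is named with its levels; of each other list, the genes with the largest or smallest differences. Slc17a6, Slc17a7, Barhl1, Pax6 (as tissue markers), Ttr, Kcnj13, Pmp2, Drp2, Cdh19 and Alas2 were chosen after their values were seen. Protein features were not analysed here. The members and gene lists were chosen with earlier results of these data known. Alternatives were other probe sets, scalings, level filters, thresholds, a floor for low values and the linear scale.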

Additional observations from a re-analysis of the deposited data

How the results depend on the processing

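Probe set choice, centring on all probe sets, quantile normalization, no level filter, and centring on the deviation of the housekeeping genes (chosen after seeing the data) moved none of the 14 counts, medians and shares beyond the limits set, 1.5 times for a count and the probe set standard deviation for a median. Single members were rerun under 5 alternatives of scaling and probe set in 4 comparisons (not against E17.5 for the P5- and P14-labelled arrays), and no difference of 2-fold or more changed sign there. Each member has 1 probe set, so the probe set alternatives could not change it. Centring on the median level of the housekeeping list shifts the P5-labelled array by −0.89 against P1. That median is the value of Pgk1 on each array. It gave medians of 2.40 (labelled P5 against P1), 0.32 (labelled P14 against P1), −1.87 (labelled P14 against labelled P5), 3 (labelled P5 against E17.5) and 0.86 (labelled P14 against E17.5), and 4 members 2-fold apart between the P14-labelled array and P1. A level filter 1 higher kept 28 members, with medians of 3.52 for labelled P5 against P1 and −2.66 for labelled P14 against labelled P5, and a median share of 34.4% on the P14-labelled array. At 1.5-fold, 12 members were apart for P1 against E17.5 and 15 for labelled P14 against P1. At 4-fold these counts were 0 and 0, and 4 for labelled P14 against E17.5. On the linear scale the median shares were 1.2% and 8.0%. With the level filter taken without the P5-labelled array (chosen after seeing the data), 20 members passed and the medians were 0.64 for P1 against E17.5, 0.91 for labelled P14 against P1 and 1.64 for labelled P14 against E17.5. On the E17.5 and P1 arrays alone 12 passed, with a median of 0.68 for P1 against E17.5. These filters keep fewer members, those with the higher early levels. Members that passed through the higher array of a comparison alone had to differ there. The larger medians are therefore partly set by the filters. No paired analysis was possible because each age had 1 array. Low signal limits the smallest differences.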

Other observations

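The probe set that Evi2a shares with Evi2 and Evi2b had levels of 7.05 at E17.5, 7.17 at P1, 8.85 on the P5-labelled array and 7.50 on the P14-labelled array. It was highest on the same array as the 31 measured members, but its signal cannot be assigned to Evi2a.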
